A study of Mus musculus with 27 samples.

Results

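Costimulatory and activation surface molecules of the mouse macrophage cell line RAW264.7 were followed as 10 genes of the 55483 in the deposited count table. The genes were taken by symbol: Cd40, Cd80, Cd86, Cd83, Cd69, Cd274, Pdcd1lg2, Icosl, Tnfsf9 and Marchf1. All groups were kept for 6 h under 1 of 3 treatments: DMSO, the solvent, alone; LPS (lipopolysaccharide) at 1 µg/ml with DMSO; or LPS with TM7nox at 10 µM, a member of the tanshinone mimics, which were made to disturb the binding of the RNA-binding protein HuR to RNA. Each treatment had 4 total RNA libraries, 4 libraries of RNA recovered with an antibody to HuR (ribonucleoprotein immunoprecipitation, RIP) and 1 library recovered with control IgG, which was replicate 3 throughout. Every group with TM7nox analysed here also had LPS, so each statement on TM7nox is one on LPS-treated cells. The labels number the replicates but do not say whether they were separate cultures, so the p-values measure the spread between these libraries.

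A T cell needs a second signal beside antigen, and macrophages and dendritic cells give it through surface ligands that rise when they sense microbial products. The B7 proteins CD80 and CD86 bind CD28 and CTLA-4, ICOS ligand (Icosl) binds ICOS, and PD-L1 (Cd274) and PD-L2 (Pdcd1lg2) bind the inhibitory receptor PD-1. CD40 is the receptor for CD40 ligand on helper T cells, and Tnfsf9 encodes the ligand of Tnfrsf9, a receptor on activated T cells. Marchf1 encodes a membrane ubiquitin ligase that removes CD86 and MHC class II from the surface, and CD83 opposes it. HuR binds U-rich and AU-rich stretches, mostly in 3′ untranslated regions (3′ UTRs), of many short-lived mRNAs.

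Levels are given as CPM, a count per 1000000 (1 M) counts of its library, scaled by the trimmed mean of M values (TMM) over the 27 libraries. Library depth was 2.73 to 28.3 M counts for total RNA, 19.8 to 41.4 M for RIP and 8.87 to 24.5 M for IgG, and the 2.73 M belonged to DMSO total RNA replicate 1. All 8 macrophage markers checked (Adgre1, Csf1r, Cd68, Lyz2, Cd14, Itgam, Mertk and Fcgr1) were present, with summed total RNA levels of 4950 to 6220 CPM in DMSO, 4500 to 6480 CPM under LPS and 3060 to 5780 CPM with TM7nox. The summed levels of 6 dendritic cell markers were 4.73 to 18.4, 11.2 to 27.4 and 11.9 to 26.5 CPM in the same groups, those of 4 B cell markers 0 to 0.354, 1.78 to 3.98 and 1.62 to 4.30 CPM, and those of 6 T cell markers 1.38 to 4.03, 7.45 to 8.95 and 9.04 to 12.5 CPM. Nearly all of the B and T cell sums under LPS came from Pax5 (mean 2.59 CPM) and Lck (8.16 CPM), while Cd79b, Ms4a1, Cd3e and Cd8a each had 12 or fewer counts over all libraries. In DMSO, Lyz2 had the highest mean of the macrophage markers (3820 CPM) and Mertk the lowest (0.548 CPM). From DMSO to LPS the mean of Csf1r went from 694 to 217 CPM and that of Fcgr1 from 37.5 to 322 CPM. The dendritic cell marker Xcr1 went from 0.162 to 7.12 CPM. The part of these marker shifts in the results was not tested. In these bulk samples, fewer cells that express a gene and less of its RNA per cell cannot be told apart.

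Without LPS the 10 genes were all low. Per kilobase of the annotated main transcript, mean total RNA levels in DMSO ran from 4.06 ± 2.5 CPM per kb (SD, n = 4) for Tnfsf9 and 3.64 ± 1.13 for Cd83 through 2.38 ± 0.552 for Cd80 and 1.51 ± 0.987 for Cd40 to 0.473 ± 0.214 for Cd274. The ranges of neighbouring genes in that order overlapped from Tnfsf9 to Cd40. Icosl, Cd86 and Cd274 formed a second overlapping run, and Cd69, Marchf1 and Pdcd1lg2 were near 0. Under LPS the order changed: Cd40 led with 130 ± 20.5 CPM per kb, above Cd83 with 44.5 ± 6.18 and Cd80 with 25.9 ± 2.49, and no ranges overlapped among these 3. From Tnfsf9 (11.4 ± 6.06) through Cd274, Cd69 and Cd86 to Icosl (2.69 ± 1.2) each gene overlapped the next.

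**Figure D1:**
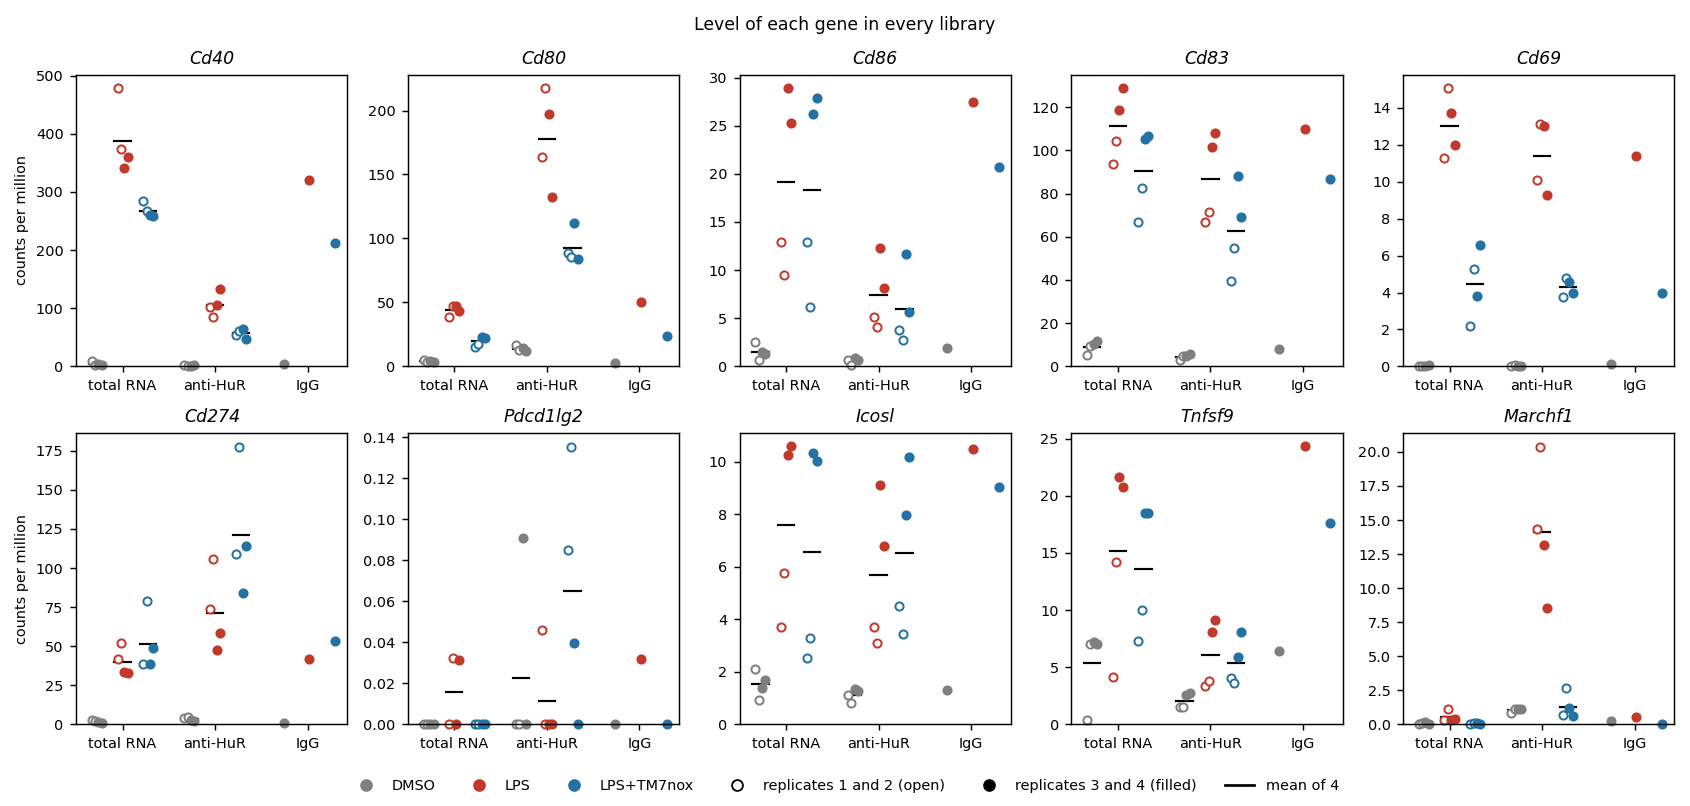
Level of each of the 10 genes in CPM (linear axes, each from 0) in every total RNA, anti-HuR RIP and IgG library, with black bars for means of 4, open points for replicates 1 and 2 and filled points for replicates 3 and 4. On this TMM scale Cd40 has its highest levels in total RNA and IgG, and Cd80, Cd274 and Marchf1 have theirs in the anti-HuR libraries. For Cd274 the order depends on the scaling: by library size alone its anti-HuR over total RNA contrast under LPS is -0.18.

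LPS raised 8 of the 10 genes in total RNA and lowered none of the 8 that could be tested, where 20.2% of all 12369 genes tested rose (edgeR quasi-likelihood F test, false discovery rate (FDR) by Benjamini-Hochberg over all genes tested, under 0.05). Pdcd1lg2 and Marchf1 did not pass the filter on low counts. A gene that is silent in DMSO passes that filter only through LPS, so the share among tested members is a description. Over all genes 2500 rose and 2690 fell; scaled by library size alone, which moves the median of all genes from -0.04 to -0.32, 1629 rose and 4253 fell, and of the members Tnfsf9 lost its call.

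Among the B7 ligands, Cd80 (ENSMUSG00000075122, chr16:38275923-38316697 on GRCm39, plus strand) stood at 5.30, 3.22, 4.25 and 3.45 CPM in DMSO replicates 1 to 4 and at 38.2, 47.5, 46.8 and 43.5 CPM under LPS. The groups were far apart, and the log2 fold change was 3.48 (SE 0.196, edgeR FDR 1.03e-08), or 11.1-fold. Cd86 went from 2.54, 0.644, 1.48 and 1.25 CPM to 12.9, 9.48, 28.9 and 25.3 CPM. Its LPS libraries fell into a low pair (replicates 1 and 2) and a high pair, both above every DMSO library, with a log2 fold change of 3.90 (SE 0.559, edgeR FDR 6.89e-05). Icosl rose less, from 2.12, 0.927, 1.38 and 1.71 CPM to 3.72, 5.77, 10.2 and 10.6 CPM, by 2.37 on the log2 scale (SE 0.505, edgeR FDR 0.00166). It showed the same low and high pairs, and in replicates 1 and 2 alone its change was not called (edgeR FDR 0.102).

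Of the PD-1 ligands only Cd274 (ENSMUSG00000016496, chr19:29344529-29365495, plus strand) was measurable. Its level was 2.97, 2.01, 1.51 and 0.986 CPM in DMSO and 41.6, 52.3, 33.6 and 33.2 CPM under LPS, 23.7-fold higher (log2 fold change 4.57, SE 0.335, edgeR FDR 1.18e-07). Pdcd1lg2, the neighbouring gene on chromosome 19, had 0 counts in all DMSO total RNA libraries, which allows up to 0.0286 CPM over the group at a floor of 3 counts, and 2 counts in all under LPS. In the RIP libraries it had 3, 1 and 5 counts over the DMSO, LPS and LPS+TM7nox groups, so no change of it was detectable at this depth.

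Cd40, of the TNF receptor superfamily, and Tnfsf9, of the TNF superfamily of ligands, were both called higher under LPS. Cd40 (ENSMUSG00000017652, chr2:164897544-164914868, plus strand) stood at 8.90, 2.68, 3.60 and 2.89 CPM in DMSO and at 478, 374, 341 and 361 CPM under LPS. This rise of 97.9-fold (log2 fold change 6.61, SE 0.341, edgeR FDR 4.88e-09) left it with the highest level per kb of the 10, although the highest DMSO value came from the shallow replicate 1; without that library the log2 fold change was 6.98. Tnfsf9 had 0.424, 7.00, 7.17 and 7.00 CPM in DMSO and 4.19, 14.2, 21.7 and 20.8 CPM under LPS. Here replicate 1 was low in both treatments and its LPS value lay under the other 3 DMSO values, so the groups overlapped. Tnfsf9 was higher under LPS in all 4 replicate numbers, with a log2 fold change of 1.35 (95% interval 0.24 to 2.45, edgeR FDR 0.0497) that 11 of 16 alternative analyses did not call.

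The 2 activation markers also rose. Cd83, of the immunoglobulin superfamily, went from 5.09, 9.29, 10.5 and 11.5 CPM to 93.6, 104, 119 and 129 CPM, 11.6-fold (log2 fold change 3.53, SE 0.212, edgeR FDR 1.76e-08). Cd69 (ENSMUSG00000030156, chr6:129244288-129252399, minus strand), a C-type lectin that appears early in the activation of leukocytes, had 0, 0.0257, 0.0322 and 0.0658 CPM in DMSO and 11.3, 15.1, 13.7 and 12 CPM under LPS. Its DMSO libraries held 4 counts together against 1514 under LPS, a ratio of 344 with an exact 95% interval of 134 to 1260 that covers counting error only, and the fitted log2 fold change was 8.24 (edgeR FDR 1.22e-08). Marchf1 (ENSMUSG00000036469, chr8:66070552-66924618, plus strand) was too low in total RNA for the test, with 0, 0.103, 0.193 and 0.0658 CPM in DMSO and 0.299, 1.13, 0.309 and 0.406 CPM under LPS. Every LPS library lay above every DMSO library, 64 against 12 counts in all, a ratio of 4.85 (exact 95% interval 2.59 to 9.87, counting error only). Of the 64, 35 were from replicate 2, and without that library the ratio was 3 (1.49 to 6.46). Tested with no filter set, the change was not called (log2 fold change 2.29, edgeR FDR 0.0773).

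RefSeq gives promoters (250 bases before to 50 after the start, build GRCm38.p6) for 5 of the 10 genes. Those of Cd80 and Cd274, the costimulatory and the inhibitory B7 ligand that both rose with LPS, were searched on both strands for GGNNNTTCC (an NF-κB type site), TTCNNNGAA (a STAT type site), TTCNNTTTC (an interferon response type element) and TGANTCA (an AP-1 type site), with matches in capitals. The Cd80 window, chr16:38458683-38458982 on the plus strand, holds GGNNNTTCC on the opposite strand 209 bases before the start and TGANTCA 42 bases before it. The Cd274 window, chr19:29367188-29367487 on the plus strand, holds TTCNNTTTC 76 bases before the start. The windows of Icosl and Pdcd1lg2 hold none of the 4, and 2 of the 3 Marchf1 windows hold TTCNNNGAA.
Cd80 promoter: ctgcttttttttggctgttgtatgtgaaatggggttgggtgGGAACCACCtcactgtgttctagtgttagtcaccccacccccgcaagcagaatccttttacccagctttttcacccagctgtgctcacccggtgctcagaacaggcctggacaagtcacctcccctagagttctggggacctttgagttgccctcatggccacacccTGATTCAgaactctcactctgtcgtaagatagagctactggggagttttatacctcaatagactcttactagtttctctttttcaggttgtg
Cd274 promoter: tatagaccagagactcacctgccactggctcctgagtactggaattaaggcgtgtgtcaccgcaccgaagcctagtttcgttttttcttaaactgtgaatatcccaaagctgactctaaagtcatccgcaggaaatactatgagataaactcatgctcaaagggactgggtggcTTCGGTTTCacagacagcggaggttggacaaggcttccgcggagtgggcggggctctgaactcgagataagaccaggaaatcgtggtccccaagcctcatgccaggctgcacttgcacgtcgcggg
Of all 32851 promoters in that table, 18.5% hold GGNNNTTCC, 8.30% TTCNNNGAA, 8.60% TTCNNTTTC and 7.80% TGANTCA, so each match is a description of the letters and not of a bound site.

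With TM7nox added to LPS, Cd80 and Cd69 fell in total RNA, 2 of the 10 genes, where 6.40% of all genes tested fell. Over all 4 replicates none of the 8 tested rose by edgeR or by DESeq2, none had a higher level at an unadjusted p under 0.05, and 7.37% of all genes tested rose. Cd80 stood at 14.9, 17.4, 23.2 and 22.2 CPM, below all 4 LPS libraries and above all DMSO libraries. Its log2 fold change against LPS was -1.18 (95% interval -1.55 to -0.81, edgeR FDR 0.000476), or 2.26-fold lower, and it was lower in 4 of 4 replicate numbers. Cd69 stood at 2.19, 5.25, 3.83 and 6.59 CPM, also below all LPS libraries, by -1.54 on the log2 scale (95% interval -2.12 to -0.95, edgeR FDR 0.00183). In replicates 1 and 2 alone neither was called, with log2 fold changes of -1.41 for Cd80 (edgeR FDR 0.0577) and -1.82 for Cd69 (edgeR FDR 0.124). Of the 8 macrophage markers 3 also fell with TM7nox in total RNA (Fcgr1 by -1.26, Itgam by -1.05 and Cd14 by -0.66) and none rose; their part in these falls was not tested.

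Cd40 had 285, 267, 261 and 259 CPM with TM7nox, below every LPS library, yet its change of -0.54 (95% interval -1.09 to 0.02) was not called (edgeR FDR 0.206). With the replicate number as a block it was called (-0.51, edgeR FDR 0.0432), and so was Cd83 (-0.32, edgeR FDR 0.0231), which had 66.7, 82.6, 105 and 107 CPM and was lower than LPS in 4 of 4 numbers. The block thus took the count from 2 to 4 genes, and the count over all genes from 1704 to 3091. Cd40 was also called without a block, in replicates 3 and 4 alone (-0.41, edgeR FDR 0.00958) and with no filter (-0.53, edgeR FDR 0.0171).

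Cd86, Icosl and Tnfsf9 gave no called difference, and their intervals were wide. For Cd86, at 12.9, 6.17, 26.2 and 27.9 CPM, the log2 fold change was -0.06 (95% interval -1.02 to 0.90), higher in 2 numbers and lower in 2. Icosl, at 2.53, 3.30, 10.3 and 10.0 CPM, gave -0.21 (-1.16 to 0.75) and Tnfsf9, at 7.29, 9.98, 18.5 and 18.5 CPM, gave -0.16 (-1.23 to 0.91). Cd274 was the one gene of the 8 with a positive estimate: it stood at 38.7, 78.7, 38.9 and 48.7 CPM, 0.35 above LPS (95% interval -0.21 to 0.92, edgeR FDR 0.444), with overlapping groups. In replicates 3 and 4 alone it was called higher (0.41, edgeR FDR 0.0419). Marchf1 had 0, 0.11, 0.0949 and 0.0425 CPM, or 7 counts against 64 under LPS, a ratio of LPS over LPS+TM7nox of 8.15 (exact 95% interval 3.73 to 21.1, counting error only). Without LPS replicate 2, which held 35 of the 64, the ratio was 5.04 (2.16 to 13.6). Marchf1 was tested only when no filter was set, and then its log2 fold change was -2.95 (edgeR FDR 0.0394).

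Against DMSO, 7 of the 10 genes were higher with LPS and TM7nox together, where 23.7% of all genes tested were higher; by library size alone 7 were higher too, while calls over all genes went from 2926 higher and 2924 lower to 1862 and 4560. Tnfsf9 missed the threshold (edgeR FDR 0.0729; 0.000857 with the replicate block). This comparison and the one of LPS with DMSO share the DMSO libraries. Side by side, the log2 fold changes over DMSO without and with TM7nox were 6.61 and 6.08 for Cd40, 3.48 and 2.3 for Cd80, 8.24 and 6.70 for Cd69, and 4.57 and 4.92 for Cd274.

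**Figure D2:**
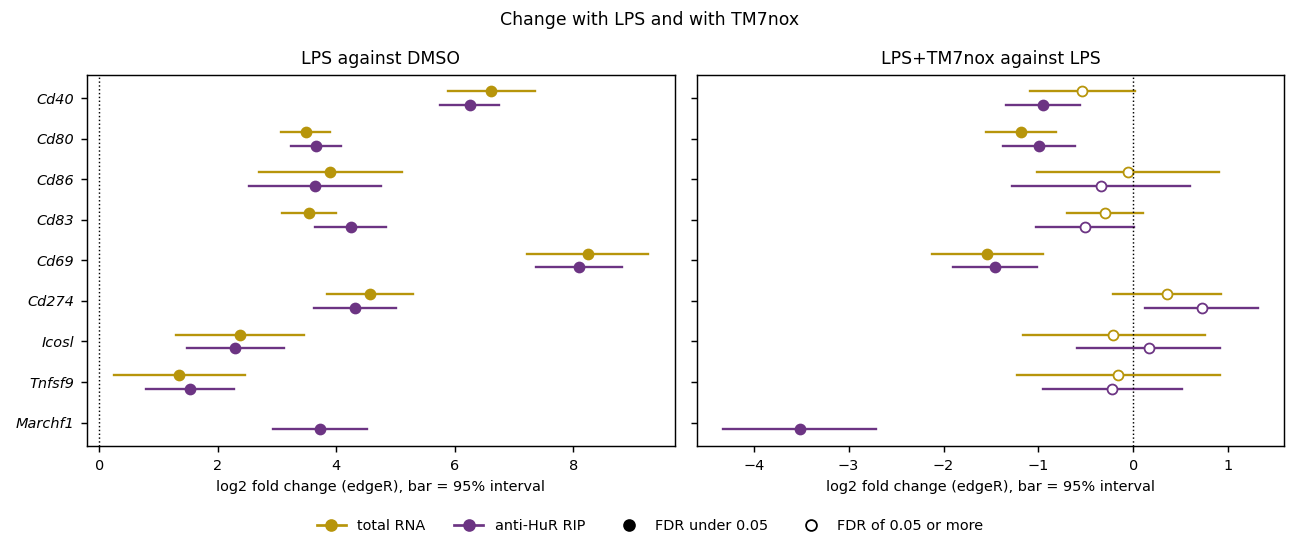
Log2 fold changes with 95% intervals from edgeR for total RNA and anti-HuR RIP, with LPS against DMSO on the left and LPS+TM7nox against LPS on the right; filled points have an FDR under 0.05. Cd80 and Cd69 lie below 0 in both assays on the right, Cd40 and Marchf1 are called there in the RIP libraries alone, and Marchf1 has no total RNA point because it was not tested.

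The RNA recovered with anti-HuR followed LPS for 9 of the 10 genes, where 23.5% of 13614 genes tested rose; Pdcd1lg2 was not tested. By library size alone the same 9 rose, while over all genes the calls went from 3201 higher and 2889 lower to 1299 and 6428. Cd69, with 4 counts in the DMSO libraries and 880 under LPS, passed the filter only through the groups with LPS. Shares of members over DMSO are therefore descriptions here too, with or without TM7nox. These recovered amounts are not corrected for the level in the cells. Cd80 went from 17.0, 12.7, 14.0 and 12 CPM to 164, 217, 198 and 133 CPM, and Cd274 from 4.27, 4.57, 2.7 and 2.51 CPM to 74.1, 106, 47.3 and 58.3 CPM. With TMM scaling both reached higher levels than in total RNA. For Cd274 this depends on the scaling: by library size alone the contrast with total RNA under LPS was -0.18 (edgeR FDR 0.573). Cd40, by contrast, went from 1.79, 1.03, 1.21 and 1.46 CPM to 102, 84.8, 106 and 132 CPM, a rise of 76.3-fold (log2 fold change 6.25, edgeR FDR 2.97e-11) to levels under those of total RNA.

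Marchf1 was readily measured in the RIP libraries. It had 0.813, 1.12, 1.15 and 1.1 CPM in DMSO and 14.3, 20.4, 13.2 and 8.52 CPM under LPS, a log2 fold change of 3.72 (SE 0.374, edgeR FDR 8.82e-07). With TM7nox it was at 0.679, 2.64, 1.2 and 0.630 CPM, below every LPS library and on both sides of the DMSO values. Its change against LPS was -3.51 on the log2 scale (95% interval -4.32 to -2.71, edgeR FDR 2.31e-05), between -4.06 and -3.27 when single libraries were left out, and against DMSO it was 0.21 (95% interval -0.63 to 1.05).

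With TM7nox 4 of the 10 genes fell in the RIP libraries, where 7.61% of all genes tested fell: Marchf1, Cd69, Cd80 and Cd40. Over all 4 replicates none of the 9 tested rose by edgeR with the filter and no block, or by DESeq2. By that edgeR fit 8.64% of all genes tested rose, and 1 member, Cd274, was higher at an unadjusted p under 0.05. Cd69 went from 10.1, 13.1, 13.1 and 9.27 CPM under LPS to 3.78, 4.81, 4.55 and 3.96 CPM (log2 fold change -1.46, edgeR FDR 0.000273). Cd80 went to 88.5, 85.2, 112 and 84.1 CPM (-0.99, edgeR FDR 0.00172) and Cd40 to 54.0, 61.1, 64.9 and 47.4 CPM (-0.95, edgeR FDR 0.00244). None of these 3 overlapped its LPS libraries, though Cd40 was not called in replicates 1 and 2 alone (edgeR FDR 0.113) nor Cd80 in replicates 3 and 4 alone (edgeR FDR 0.0816). In these libraries 4 of the 8 macrophage markers fell too, with Fcgr1 at -1.92, Lyz2 at -1.09 and Itgam at -0.98 the largest, and their part was not tested.

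Cd274 had the opposite sign in the RIP libraries, with 109, 178, 84.0 and 114 CPM with TM7nox, higher than LPS in 4 of 4 numbers by 1.47 to 1.96 times. The log2 fold change of 0.72 (95% interval 0.12 to 1.31) was not called (edgeR FDR 0.0935), while 4 of 16 alternatives called it. Among these were the replicate block (0.73, edgeR FDR 0.000362), no filter (0.70, edgeR FDR 0.0177) and replicates 3 and 4 alone (0.91, edgeR FDR 0.0445). The block also called Cd83, at 39.5, 54.5, 88.2 and 69.3 CPM with TM7nox against 66.8, 71.3, 102 and 108 CPM under LPS (-0.54, edgeR FDR 0.00475), taking the count from 4 to 6 genes and that over all genes from 2212 to 4577. Over DMSO, 8 of the 10 genes were higher in the RIP libraries with LPS and TM7nox, where 25.1% of all genes tested were higher; by library size alone 7 were, without Tnfsf9, and calls over all genes went from 3412 higher and 3141 lower to 1463 and 6578.

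Recovery relative to level, the RIP over total RNA contrast, set some of the genes above and some below the typical gene under every treatment. TMM scaling places the typical gene near 0, so a value says how a gene was recovered beside the typical gene. Under LPS, 3 of the 10 were higher, where 32.9% of 14311 genes tested were, and 3 were lower, where 30.8% were. In DMSO 3 were higher (37.0% of all genes) and 3 lower (33.4%), and with TM7nox 3 were higher (35.2%) and 4 lower (34.8%). With the block, Cd86 in DMSO (edgeR FDR 0.00608) and Cd83 under LPS (edgeR FDR 0.00909) were also lower. By library size alone, where the median of all genes under LPS is -1.06, the counts under LPS were 2 members higher and 6 lower, and over all genes 2833 higher and 8134 lower against 4708 and 4401 with TMM. The counts with TMM are near the background, since 30.8% to 37.0% of all genes lay on each side.

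The 3 genes above the typical gene were Marchf1, Cd80 and Cd274. Marchf1 had log2 contrasts of 3.24 (SE 0.589) in DMSO, 4.69 (SE 0.473) under LPS and 4.11 (SE 0.632) with TM7nox, with edgeR FDR of at most 2.89e-05. It was too low in total RNA for the filter and entered this fit through the RIP libraries (118, 1099 and 92 counts against 12, 64 and 7), so a high recovery was a condition of its test and its contrasts are a description. Without LPS total RNA replicate 2 the contrast under LPS was 5.35. Cd80 had 1.95 (SE 0.196), 2.01 (SE 0.182) and 2.21 (SE 0.185). Between same-numbered libraries its difference lay between 1.60 and 2.53 in all 12 pairs, on the log2(CPM + 0.5) scale. Cd274 had 1.18 (SE 0.345), 0.84 (SE 0.288) and 1.21 (SE 0.290), and its direction depends on the scaling: by library size alone it was -0.18 under LPS.

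Cd40, Cd86 and Tnfsf9 lay below the typical gene. Cd40 had log2 contrasts of -1.41 (SE 0.251), -1.86 (SE 0.214) and -2.26 (SE 0.218) in DMSO, LPS and LPS+TM7nox. Under LPS Cd86 had -1.39 (SE 0.483, edgeR FDR 0.0144) and Tnfsf9 -1.34 (SE 0.489, edgeR FDR 0.0193), and they lost these calls in 4 and 5 of 17 alternatives. Cd69 and Icosl were not called under any treatment, with -0.19 (95% interval -0.70 to 0.32) and -0.44 (-1.34 to 0.45) under LPS. Cd83 was lower in DMSO (-0.97, edgeR FDR 0.00266) and with TM7nox (-0.57, edgeR FDR 0.0476), where 9 of 17 alternatives did not call it (DESeq2 -0.34, FDR 0.187). Under LPS Cd83 had -0.36 (95% interval -0.88 to 0.15).

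**Figure D3:**
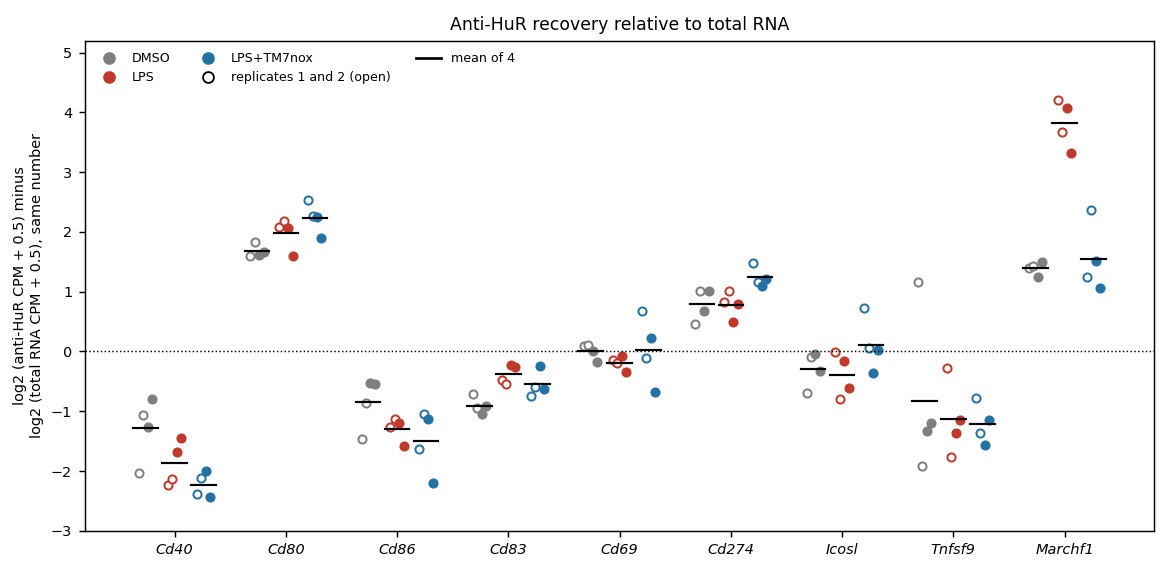
Difference between the anti-HuR RIP library and the total RNA library of the same treatment and number, as log2(CPM + 0.5), for 9 genes; points are the 4 numbers, bars their means, and 0 is equal CPM. On the TMM scale used, Cd80, Cd274 and Marchf1 lie above 0 in all 12 pairs, and Cd40, Cd86 and Cd83 lie below 0 in all 12.

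For none of the 10 genes was a change of recovery relative to level called with LPS or with TM7nox by the edgeR test. Over all genes tested 0.0419% changed with LPS (6 genes) and 0.00699% with TM7nox (1 gene), so the test calls few genes of any kind. No member had an unadjusted p under 0.05 in either comparison, and DESeq2 called none of the 10. With the replicate block none of the 10 was called either, while calls over all genes were 50 with LPS and 2 with TM7nox. The intervals show what could have been missed: with LPS the largest estimate was 1.45 for Marchf1 (95% interval -0.26 to 3.15), and Cd69, near 0 in DMSO, had the widest interval (-2.21 to 1.87). With TM7nox the change was 0.19 for Cd80 (95% interval -0.32 to 0.71), -0.40 for Cd40 (-1.01 to 0.20), 0.37 for Cd274 (-0.46 to 1.2) and -0.58 for Marchf1 (-2.74 to 1.59). For Marchf1 the total RNA side rests on 7 counts. With 1 term per treatment and number, shared by both assays, the member with the lowest FDR was Cd83 with LPS (0.53, edgeR FDR 0.175).

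Against control IgG, 3 of the 10 genes were higher with anti-HuR, where 33.8% of 14973 genes tested were, and 4 were lower, where 34.2% were. Marchf1 (3.63, SE 0.603), Cd80 (2.07, SE 0.204) and Cd274 (1.15, SE 0.286) were the higher ones, and Cd40 (-1.62, SE 0.162), Cd86 (-1.84, SE 0.336), Tnfsf9 (-1.81, SE 0.253) and Cd83 (-0.57, SE 0.206) the lower ones, in log2 units. Marchf1 had 11, 16 and 0 counts in the IgG libraries and passed the filter through the anti-HuR libraries, so its value is a description; it was 2.44 without the LPS and 4.82 without the DMSO IgG library. All IgG libraries are replicate 3, and with the replicate block Cd83 was not called (edgeR FDR 0.088), Cd274 came to 0.54 (edgeR FDR 0.0213) and Cd86 to -1.09 (edgeR FDR 9.44e-05). By library size alone Cd274 was not called (0.10, edgeR FDR 0.74), and 2 members were higher and 6 lower, with 2903 and 8357 over all genes against 5067 and 5127 with TMM. In replicate 3 under LPS, Cd40 had 320 CPM with IgG against 341 CPM in total RNA and 106 CPM with anti-HuR, and Cd83 had 110, 119 and 102 CPM. Cd80 had 50.2 CPM with IgG, 46.8 CPM in total RNA and 198 CPM with anti-HuR. Over the 9 genes with more than 3 counts there, the ratio of IgG to total RNA lay between 0.83 and 1.65 and that of anti-HuR to IgG between 0.331 for Cd40 and 25.7 for Marchf1, with 1.13 for Cd274. In DMSO the ratio of IgG to total RNA ran more widely, from 0.538 for Cd80 (88 IgG counts) and 0.653 for Cd274 to 4.04 for Cd69 (5 IgG counts). With TM7nox it lay between 0.791 and 1.38 over 8 genes, and Marchf1 had 0 IgG counts. With 1 IgG library per treatment there is no test within a treatment.

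The 3′ UTRs of the annotated main transcripts (GENCODE M39, GRCm39) were searched for ATTTA, the core of AU-rich elements, on the sense strand. Over 10990 coding genes tested in the recovery contrast the median was 1.383 ATTTA per kb, and 73.5% had at least 1. Cd274 (11 in 2683 bases, 4.10 per kb) and Marchf1 (11 in 3113 bases, 3.53 per kb), both above the typical gene in recovery, were rich in it. So were genes below it: Cd40 had 7 in 2035 bases (3.44 per kb) and Tnfsf9 2 in only 265 bases (7.55 per kb). In the longest annotated 3′ UTR of Tnfsf9, of 702 bases, the value was 2.85 per kb. Cd80 had none in the 532 bases of its main transcript and 5 in the 1896 bases of its longest annotated 3′ UTR, and Cd86 had none in 1680 bases. The windows of 30 bases below were taken from members above and below the typical gene, with ATTTA in capitals, or, for Cd86, runs of at least 5 T.
Marchf1 (chr8:66922291-66922320, plus strand): ttttcagtttcATTTAaaggttacaATTTA
Cd274 (chr19:29364593-29364622, plus strand): ctttttATTTAatgtatggatATTTAtgct
Cd80, longest 3′ UTR (chr16:38316561-38316590, plus strand): ttgttttttttaagATTTAtactttttatt
Cd40 (chr2:164913508-164913537, plus strand): tttctacctgtgtgttaccATTTAgttctt
Tnfsf9 (chr17:57414593-57414622, plus strand): tcttgtctttaactggacttggtATTTAtt
Cd86 (chr16:36424221-36424250, minus strand): ttttcttgaaTTTTTTcaagtatacTTTTT
TTTTT per kb was 9.32 for Marchf1, 4.10 for Cd274 and 0 for Cd80, or 6.33 in the longest 3′ UTR of Cd80. It was 5.36 for Cd86, 2.46 for Cd40 and 0 for Tnfsf9, or 1.425 in the longest 3′ UTR of Tnfsf9. The median over the 10990 coding genes was 4.16. High ATTTA values thus occurred on both sides of the typical gene. Whether these letters bear on recovery was not tested, and they do not show binding. In exons, Cd80 shares 276 of 4130 bases with Timmdc1, Cd274 581 of 4081 with Gm36043, Tnfsf9 192 of 1329 with Gm11110 and Marchf1 546 of 8236 with Gm15354, all on the opposite strand. The library kit keeps the strand per the labels, but whether counting used it is not given in the sources used here, so reads of those stretches could belong to either gene.

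Levels of 5 of the genes were split by replicate number. Both replicates 3 and 4 lay above both replicates 1 and 2 in 6 of 6 groups for Cd83 and in 5 of 6 for Cd86, Icosl and Tnfsf9, and below them in 4 of 6 for Cd274. Of the 10729 genes detected in all 24 libraries, 6.5% lay above in at least 5 groups and 9.62% below in at least 4. Under LPS, mean total RNA levels of Cd86 were 11.2 CPM in replicates 1 and 2 and 27.1 CPM in replicates 3 and 4, those of Icosl 4.75 and 10.4 CPM, and those of Cd274 46.9 and 33.4 CPM. In the RIP libraries under LPS, Cd86 had 4.57 and 10.2 CPM. What the numbers stand for is not in the labels, and the part of these shifts in the wide intervals of Cd86, Icosl and Tnfsf9 was not tested.

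**Figure D4:**
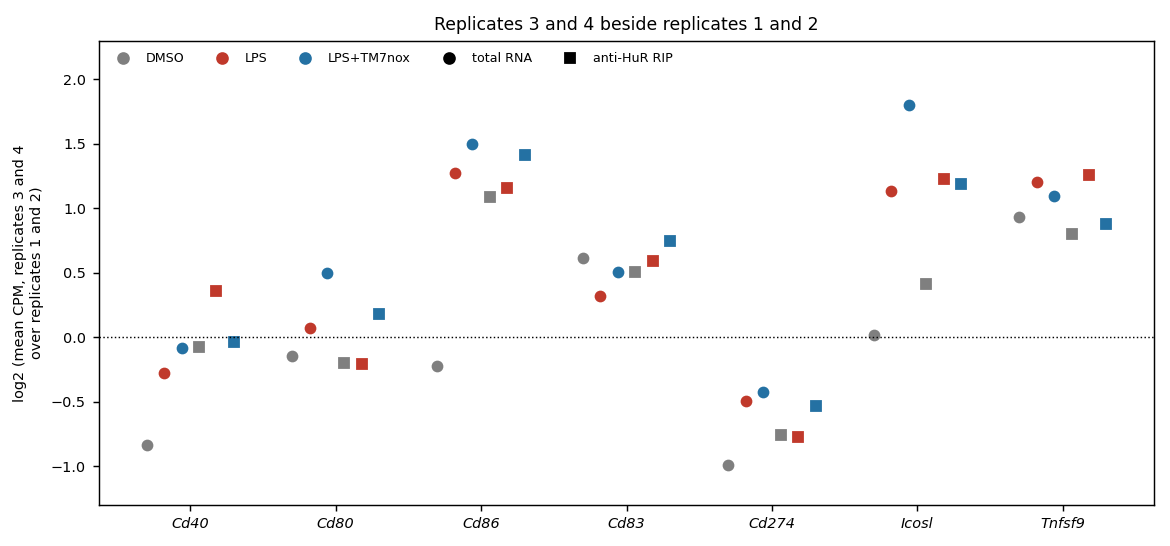
Log2 ratio of the mean CPM of replicates 3 and 4 over that of replicates 1 and 2 in the 3 total RNA groups (circles) and the 3 anti-HuR groups (squares) for the 7 genes detected in all 24 of these libraries; Marchf1, Cd69 and Pdcd1lg2 are left out. Cd83 is above 0 and Cd274 below 0 in all 6 groups.

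Genes around these molecules were read from lists. As with the members, a gene near 0 in DMSO passed the filter only through the LPS groups (Tnfsf15, Slamf7 and Cd200 had means of 0.0402, 0.131 and 0 CPM in DMSO), so counts and medians over the tested genes of a list are descriptions. In the CD40 signalling list 8 of 11 genes rose with LPS in total RNA and 1 fell, with a median log2 fold change of 1.26 beside -0.04 over all genes. Traf1, an adaptor of TNF receptors (4.42, edgeR FDR 9.95e-08), Nfkb2 (2.51, edgeR FDR 5.37e-07) and Birc3 (1.68, edgeR FDR 6.86e-07) had the largest changes, and with TM7nox 1 of the 11, Traf3, was called (0.42, edgeR FDR 0.0399), near the 7.37% of all genes that rose. Other TNF superfamily ligands rose in 3 of 4 tested cases out of 10 (20.2% of all genes rose), with a median of 3.24, led by Tnfsf15 (7.51, edgeR FDR 3.72e-07) and Tnfsf10 (5.07, edgeR FDR 1.1e-08), and with TM7nox none of the 4 was called in total RNA, where the mean of Tnfsf15 was 11.1 CPM under LPS and 5.59 CPM with TM7nox. In the RIP libraries Tnfsf4 fell with TM7nox (-2.22, edgeR FDR 0.0312). Of 5 other B7 and butyrophilin genes 2 were tested, and both fell with LPS, where 21.7% of all genes fell: Vsir by -1.49 (edgeR FDR 0.00179) and Cd276 by -1.3 (edgeR FDR 0.000963).

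Among 12 tested of 15 other surface molecules of activation and adhesion, 10 rose with LPS, where 20.2% of all genes rose, with a median log2 fold change of 2.18 beside -0.04 over all genes. With TM7nox 1 of the 12 rose and 2 fell, where 7.37% of all genes rose and 6.40% fell: the poliovirus receptor gene Pvr rose (1.07, edgeR FDR 0.00120) while Nectin2 (-0.94, edgeR FDR 0.000381) and the death receptor gene Fas (-0.94, edgeR FDR 0.00348) fell. Of the MARCH family beside Marchf1, 6 of 10 were tested, and the calls with LPS, 1 in each direction, stand beside 20.2% of all genes that rose and 21.7% that fell: with LPS Marchf5 rose (1.90, edgeR FDR 1.87e-07) and Marchf6 fell (-0.33, edgeR FDR 0.0228), and with TM7nox 2 of the 6, Marchf8 (0.55, edgeR FDR 0.0368) and Marchf7 (0.49, edgeR FDR 0.0201), rose (7.37% of all genes). Of 7 genes of the MHC class II pathway only Cd74, the invariant chain, and H2-DMa were tested in total RNA, and neither was called in either comparison. The class II chains H2-Aa, H2-Ab1 and H2-Eb1 were too low for the test. Of the T cell counter-receptor genes 3 of 6 were tested, and Pdcd1 (2.34, edgeR FDR 0.0186) and Tnfrsf9 (2.25, edgeR FDR 0.00782) rose with LPS, where 20.2% of all genes rose. The third, Icos, was not called, with means of 1.01 CPM in DMSO and 0.311 CPM under LPS, and it was lower with LPS and TM7nox than in DMSO (-2.45, edgeR FDR 0.0181). In the RIP libraries Cd28 fell with LPS (-2.46, edgeR FDR 0.00522).

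The gene with the most similar pattern over the 12 total RNA libraries was found for each of 8 members among 8134 coding genes, by Pearson's r of log2(CPM + 1), as a description of libraries that share their treatments, depths and numbers. It was Isg20 for Cd40 (r = 0.997), Notch1 for Cd80 (0.996), Ifi208 for Cd83 (0.996), Casp1 for Cd274 (0.996), Ccl22 for Cd69 (0.990), Lif for Cd86 (0.984), Rpl7 for Tnfsf9 (0.978) and Nlgn2 for Icosl (0.968). The 12 libraries include those with TM7nox, so a shared level there follows from how the genes were picked. Notch1, matched to Cd80, had means of 1.57, 77.2 and 23.8 CPM in DMSO, LPS and LPS+TM7nox. Ccl22, matched to Cd69, had 0.0983, 105 and 25.1 CPM.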

How the data were processed

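RAW264.7 libraries of total RNA, anti-HuR RIP and IgG were read from 1 deposited table of raw read counts, with 1 whole number per gene and library. Per the submitters' processing notes, FastQC 0.11.9, STAR, HTSeq, DESeq2 and build GRCm39 were used; the sources used here do not give the annotation release or the strand setting. Per the labels' protocols, libraries were made from 7 ng of RNA of 30 M cells with a stranded kit.

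Counts were tested with edgeR 4.0.16 (R 4.3.3; limma 3.58.1): TMM scaling, filterByExpr with a minimum count of 10, quasi-likelihood F tests (two-sided) and Benjamini-Hochberg FDR over all genes tested, called under 0.05. Total RNA (12 libraries) and RIP (12) were fitted apart, RIP over total RNA on all 24, and anti-HuR against IgG on 15 with treatment as a term. The edgeR fits were also tested on simulated data. Standard errors are the log2 fold change over the root of F, and 95% intervals use the fit's degrees of freedom. The symbol column of the table gave the members. The named genes were the 10 members, for each member at 1 CPM or more the coding gene at 5 CPM or more with the highest r, and up to 3 called genes of the largest change in each list. Members and lists were chosen with earlier results of these data known. One marker of the B cell list is not reported here, and the sums leave it out.

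Same-numbered libraries deviated together: their deviations from group means correlated at 0.244 to 0.62 in all 36 same-numbered pairs. Differently numbered pairs correlated at -0.5 to 0.463. The number was therefore taken as a possible pairing, from the data and not from a label that explains it. The fits that gave the calls held no term for the number, and the replicate block was run as an alternative. No 2 replicates agreed within sampling noise (chi-square per gene of 38.0 to 213 over 36 pairs). Alternatives were the replicate block, DESeq2 1.42.0, its size factors in edgeR, no filter, replicates 1 and 2 or 3 and 4 alone, and each library left out; library size and upper quartile scaling, a block within treatment and count ratios of Marchf1 with each library left out were added after seeing the data. Of the gene IDs, 93.2% matched GENCODE M39 on GRCm39, and gene positions come from it. PCR copies were not removed by identifiers, so counting intervals and floors cover counting error only.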

Additional observations from a re-analysis of the deposited data

Results flagged for a closer look

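In groups of 4 libraries, 7 of 58 sets of values had 1 library far from the other 3; chance flags about 1 in 20. Cd40 in DMSO total RNA replicate 1 (8.90 CPM) was above, and Tnfsf9 in the same library (0.424 CPM) below, the other 3. That library was the shallowest, and without it the log2 fold change of Cd40 with LPS was 6.98. Cd80 in anti-HuR LPS+TM7nox replicate 3 (112 CPM) and Marchf1 in LPS total RNA replicate 2 (1.13 CPM, from 35 counts) were above, and Marchf1 in anti-HuR DMSO replicate 1 (0.813 CPM) below, their groups. Pdcd1lg2 stood alone above 0 in anti-HuR DMSO replicate 3 (0.0911 CPM) and anti-HuR LPS replicate 1 (0.0463 CPM), which are 3 counts and 1 count.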

How the results depend on the processing

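Of 64 called changes of members, 46 kept their direction and call in every alternative run. The count of members called in total RNA for LPS+TM7nox against LPS, 2, was 4 with the replicate block, 4 with no filter, 0 in replicates 1 and 2 alone and 4 in replicates 3 and 4 alone (Cd274 higher, 3 lower), and 2 whenever 1 library was left out. For RIP over total RNA under LPS the count of 6 ranged from 3 (without anti-HuR LPS replicate 2) to 6 over single libraries left out. Cd274 in that contrast turned to -0.18 with library size scaling alone (edgeR FDR 0.573); that scaling moved the median of all genes from -0.06 to -1.06. The cause of the other changes was not tested. Tnfsf9 with LPS in total RNA kept its call in 5 of 16 alternatives. The block changed no member call beyond those given above. Over all genes, calls for LPS+TM7nox against LPS in total RNA were 1704, and 168 in replicates 1 and 2 alone, 3489 in replicates 3 and 4 alone and 3091 with the block; in RIP they were 2212, 789, 1070 and 4577. Separate fits of replicates 1 and 2 alone called 1668 genes for LPS against DMSO in total RNA and 3392 in RIP, against 5190 and 6090 with all replicates, and 2246 against 5850 for LPS+TM7nox against DMSO in total RNA. Changed recovery with LPS, 6 genes, ranged from 0 in replicates 1 and 2 alone to 62 with DESeq2, and with TM7nox, 1 gene, from 0 to 5 with no filter. Depth limits Pdcd1lg2 in all libraries and Marchf1 in total RNA.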
